A study of Mus musculus with 12 samples.

Results

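The calpain system of C2C12 cells was followed through 5 genes, Capn1, Capn2, Capn3, Capn6 and Cast, out of 21232 genes in the count table. They were chosen by symbol, 4 as calpain genes and Cast as the gene of the calpain inhibitor calpastatin. All 5 passed the filter on low counts, which 12736 genes passed in all.

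C2C12 is an established line of mouse myoblasts, labelled C57BL/6 and used at passages 5 to 10, that leaves the cell cycle and fuses into myotubes when serum is lowered. RNA was sequenced from 12 libraries, 3 for each of 4 groups, with replicates lettered A, B and C. Proliferating myoblasts were taken at 0 h in medium with 10% fetal bovine serum, and the other 3 groups at 48 h after a change, near confluence, to medium with 2% horse serum. For the control group only that change is described. The TNF group also received the inflammatory cytokine TNF alpha at 10 ng/ml for 48 h. The Fbxl2 siRNA group had Fbxl2, the gene of an F-box protein of a ubiquitin ligase, silenced. The labels do not say whether control and TNF cells received a non-targeting siRNA, nor which sequence silenced Fbxl2. They also do not say whether replicates were separate cultures, and if they were not, the spread that the p-values rest on is technical.

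Calpains are calcium-dependent cysteine proteases of the cytosol that cut their targets at few sites rather than degrading them whole. The conventional calpains 1 and 2 each pair a catalytic subunit, made from Capn1 or Capn2, with a small subunit from Capns1, and both are held in check by calpastatin. In muscle they are known for releasing proteins from the cytoskeleton and for a part in myoblast migration and fusion. Capn3 encodes the calpain of skeletal muscle, which binds titin in the sarcomere and whose loss causes a limb-girdle muscular dystrophy. Capn6 encodes a family member that lacks the catalytic cysteine and is known for binding microtubules.

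Library totals ran from 26416978 to 32917763 counts. Levels of a gene across libraries are in counts per 1000000 (CPM) on totals scaled by TMM, a method that takes most genes as unchanged. A gene was called changed at a Benjamini-Hochberg adjusted p under 0.05 in edgeR's quasi-likelihood test. Fbxl2 stood at 67.5% of the control level in the siRNA libraries (log2 fold change -0.57, SE 0.06, edgeR adjusted p = 1.67e-07), and its 3 siRNA libraries, at 20.6 to 23.6 CPM, lay below all 3 control libraries, at 31.9 to 34.4 CPM. Of 9 myogenic markers, 8 were matched by symbol, and each had counts in every group. Their summed level was 1433 to 1582 CPM in proliferation, 3588 to 3989 in control, 1437 to 1539 with TNF and 2278 to 2705 after siRNA. Des weighed most in that sum in every group. It averaged 1095 CPM in proliferation, 1201 in control, 727 with TNF and 1276 after siRNA. With TNF 4 of the 8 markers were higher and 4 lower than in proliferation, Myog among the higher ones at 79.9 against 22.5 CPM. The 5 macrophage markers summed to at most 2.95 CPM in any library, with Adgre1 at 0 throughout, Itgam at 0 in proliferation and Ptprc at 0 with TNF, and the 4 endothelial markers to at most 2.63 CPM. The 6 fibroblast markers summed to 3144 to 3959 CPM in proliferation, 8221 to 8326 in control, 5828 to 6190 with TNF and 9408 to 10046 after siRNA. Thy1 had 1 count in siRNA library C and 0 in every other library, so it was in effect absent from all groups. Col3a1 made up most of that sum (8190 CPM on average after siRNA), and for siRNA over control 2 fibroblast markers were higher and 2 lower, Col1a1 (-0.58) and Dcn (-0.31) on the log2 scale. The 5 smooth muscle markers summed to 1695 to 1812, 4587 to 4796, 4762 to 4885 and 3095 to 3233 CPM in the same order, and share Des with the myogenic list. The part of these markers in the results for the calpains was not tested. In bulk RNA, fewer cells of a type and less RNA per cell cannot be told apart.

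Capn3, the muscle calpain gene, lies on the plus strand of chromosome 2 (GRCm38, 120456019 to 120504913, protein coding). Per kilobase of exon it had the lowest level of the 5 genes, and it changed with differentiation and with each treatment. In proliferating myoblasts its libraries A, B and C held 5.69, 4.95 and 5.85 CPM. Control libraries held 21.3, 22.0 and 22.5 CPM, TNF libraries 14.4, 16.9 and 15.4, and siRNA libraries 14.4, 11.5 and 13.5. Every 48 h library was thus above every proliferation library, and the control libraries were above all TNF and all siRNA libraries, while those of TNF and siRNA overlapped.

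From proliferation to control Capn3 rose 3.98-fold (log2 fold change 1.99, 95% confidence interval, CI, 1.80 to 2.18, edgeR adjusted p = 5.03e-14). With TNF it stood at 70.8% of control (log2 fold change -0.50, SE 0.08, edgeR adjusted p = 2.05e-05). After Fbxl2 siRNA it stood at 59.8% of control (log2 fold change -0.74, SE 0.08, edgeR adjusted p = 1.2e-07). Both treated groups remained above proliferation, by 2.81-fold with TNF and 2.38-fold after siRNA (edgeR adjusted p = 1.27e-11 and 7.64e-10). Between the treated groups Capn3 was 1.18-fold higher with TNF (95% CI of the log2 fold change 0.07 to 0.42, edgeR adjusted p = 0.0181). That last call ended without TNF replicate B (adjusted p = 0.0946) or siRNA replicate B (adjusted p = 0.137), and when every library of letter B (adjusted p = 0.385), or every one of letter C (adjusted p = 0.0795), was dropped, within a range of 0.00328 to 0.385 over 22 alternatives. Most myogenic markers went the same way as Capn3 in the comparisons with control. Of the 8 tested, control exceeded proliferation for 7 and fell short for 1. Against control, 8 were lower with TNF, and 6 were lower and 1 higher after siRNA. Between the treated groups they went the other way from Capn3, with 7 lower and 0 higher for TNF over siRNA. For TNF over proliferation 4 were higher and 4 lower, and for siRNA over proliferation 7 were higher and 1 lower.

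The gene of the non-proteolytic calpain, Capn6, lies on the minus strand of chromosome X (143802231 to 143827414, protein coding). Its libraries A, B and C held 22.5, 24.3 and 21.5 CPM in proliferation and 74.6, 77.4 and 78.2 CPM in control. With TNF they held 69.9, 71.9 and 75.1 CPM, and after siRNA 72.9, 68.4 and 73.9 CPM. All 9 libraries at 48 h were therefore far above the proliferation libraries and close to each other, with the siRNA libraries just below those of control and the TNF libraries overlapping them. Capn6 rose 3.38-fold from proliferation to control (log2 fold change 1.76, 95% CI 1.64 to 1.87, edgeR adjusted p = 1.19e-16). It was also higher than in proliferation with TNF (3.18-fold) and after siRNA (3.16-fold), with edgeR adjusted p = 1.63e-16 and 7.78e-16.

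Unlike for Capn3, neither treatment gave a call for Capn6 against control. The log2 fold change was -0.09 with TNF (95% CI -0.19 to 0.02, edgeR adjusted p = 0.151) and -0.10 after siRNA (-0.20 to 0.01, adjusted p = 0.0935). These intervals end at falls much smaller than the rise with differentiation. A call of lower was made for siRNA under 5 of 22 alternatives and for TNF under 2, with adjusted p ranging from 0.0178 to 0.376 and from 0.0184 to 0.366. In the authors' deposited table the adjusted p of Capn6 was 0.0449 for Fbxl2 siRNA and 0.0573 for TNF. The TNF and siRNA groups differed by a log2 fold change of 0.01 (95% CI -0.09 to 0.12, edgeR adjusted p = 0.863).

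Since Capn3 and Capn6 rose together with differentiation, the 250 bases before their RefSeq start sites (GRCm38.p6, 5′ to 3′ on the gene's strand) are shown, with each CANNTG in capitals. CANNTG is the E-box, the kind of site that MyoD-type factors bind. Capn3 has a pair of start sites in the RefSeq table, and gene-level counts do not tell their transcripts apart.
Capn3, first start, chr2:120463343-120463592, plus strand: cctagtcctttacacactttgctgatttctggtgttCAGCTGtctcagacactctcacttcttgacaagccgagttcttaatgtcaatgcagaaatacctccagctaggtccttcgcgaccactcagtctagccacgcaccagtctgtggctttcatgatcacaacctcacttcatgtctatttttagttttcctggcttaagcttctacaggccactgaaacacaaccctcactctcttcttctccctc
Capn3, second start, chr2:120476659-120476908, plus strand: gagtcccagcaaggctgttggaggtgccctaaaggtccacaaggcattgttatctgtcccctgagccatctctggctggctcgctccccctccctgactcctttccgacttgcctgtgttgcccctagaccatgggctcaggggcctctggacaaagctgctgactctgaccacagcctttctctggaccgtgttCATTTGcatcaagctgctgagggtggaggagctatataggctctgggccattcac
Capn6, chrX:143827413-143827662, minus strand: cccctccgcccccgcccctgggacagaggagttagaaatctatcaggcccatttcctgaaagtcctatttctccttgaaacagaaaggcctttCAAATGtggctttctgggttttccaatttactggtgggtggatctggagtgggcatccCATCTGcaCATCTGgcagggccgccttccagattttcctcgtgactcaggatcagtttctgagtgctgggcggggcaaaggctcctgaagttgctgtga
The windows hold 1, 1 and 3 matches to CANNTG, counted on both strands. Among 32851 windows of 250 bases before RefSeq starts, 66.2% held at least 1, so these letters do not set the pair apart. The form CAGCTG, a subset of CANNTG, is in the first Capn3 window and in 13% of all windows. TAAAAATA or its reverse complement, a core of MEF2 sites, is in the same window and in 2.45% of all windows. GGGCGG or its reverse complement, a GC box of the kind SP1 binds, had 3 matches before Capn6, 0 in both Capn3 windows and at least 1 in 32.7% of all windows. Such matches are not confined to the genes that rose. CAGCTG is also in a window before Cast, and CANNTG in a window before Capn1 and in that before Capn2. A match describes letters only.

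**Figure D1:**
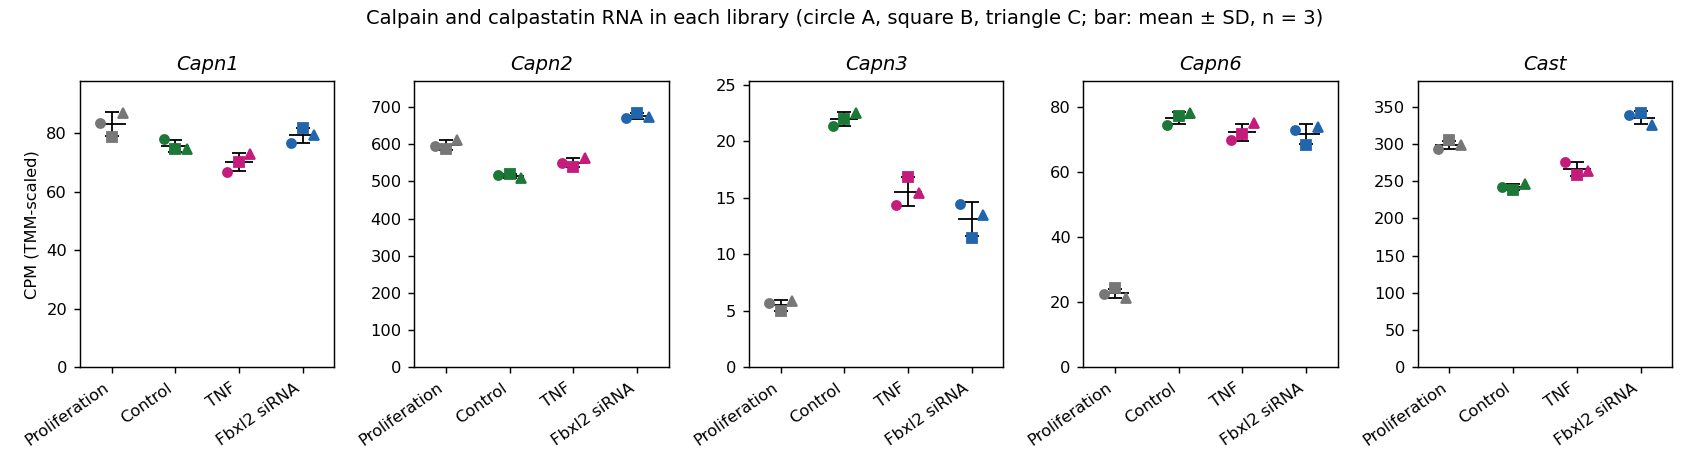
CPM of each gene (y axis, from 0) in the 12 libraries by group (x axis), with symbols for replicate letters and bars for mean ± SD (n = 3). Capn3 and Capn6 are lowest in proliferation, and Capn2 and Cast are highest after Fbxl2 siRNA, where Capn2 reaches 671 to 684 CPM and Cast 325 to 342 CPM.

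Capn1 and Capn2, the catalytic subunits of the conventional calpains, changed far less with differentiation than Capn3 and Capn6, and in the opposite direction. Capn2 lies on the minus strand of chromosome 1 (182467260 to 182517608). Its libraries A, B and C held 596, 586 and 612 CPM in proliferation and 516, 519 and 509.7 CPM in control. They held 550.2, 538 and 562 CPM with TNF and 671, 684 and 672 CPM after siRNA. The 4 groups did not overlap for any pair, and their order from low to high was control, TNF, proliferation, siRNA.

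Capn2 stood at 86.1% of the proliferation level in control (log2 fold change -0.22, SE 0.04, edgeR adjusted p = 8.22e-05). After Fbxl2 siRNA it rose 1.31-fold over control (log2 fold change 0.39, 95% CI 0.31 to 0.48, edgeR adjusted p = 6.45e-08), and 1.13-fold over proliferation (adjusted p = 0.000948). With TNF the log2 fold change over control was 0.10 (95% CI 0.01 to 0.18) and missed the threshold with an edgeR adjusted p of 0.0572. TNF was lower than siRNA by a log2 fold change of -0.30 (SE 0.04, edgeR adjusted p = 3.24e-06). It was lower than proliferation by -0.12 (SE 0.04, edgeR adjusted p = 0.0132).

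For TNF over control, a call of higher for Capn2 was made under 6 of 22 alternatives (adjusted p from 0.0302 to 0.5 over all), among them the fits without proliferation replicate B (adjusted p = 0.0302), siRNA replicate B (adjusted p = 0.0463) or, in every group, letter B (adjusted p = 0.0354). The authors' deposited table for TNF gave Capn2 a log2 fold change of 0.07 with an adjusted p of 0.0941. The call of TNF below proliferation ended without proliferation replicate C (adjusted p = 0.062), TNF replicate B (adjusted p = 0.0576) or any library of letter C (adjusted p = 0.17), and with only those 2 groups in the fit (adjusted p = 0.0661).

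Capn1 lies on the minus strand of chromosome 19 (5988545 to 6015897). Its libraries A, B and C held 83.6, 79.0 and 87.0 CPM in proliferation, 78.1, 74.7 and 74.5 in control, 66.9, 70.4 and 73.1 with TNF and 76.7, 81.7 and 79.6 after siRNA. All TNF libraries were below all libraries of the other groups, whereas siRNA libraries overlapped both proliferation and control. Capn1 was lower in TNF than in proliferation (log2 fold change -0.25, SE 0.05, edgeR adjusted p = 0.000143) and than after siRNA (-0.18, SE 0.05, edgeR adjusted p = 0.00411). After siRNA its log2 fold change over control was 0.07 (95% CI -0.04 to 0.17, edgeR adjusted p = 0.252), and over proliferation -0.07 (-0.17 to 0.03, adjusted p = 0.23).

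The remaining differences of Capn1 lay at the threshold. In control it stood at 91.1% of proliferation (log2 fold change -0.14, SE 0.05, edgeR adjusted p = 0.0173), a call that ended without proliferation replicate C (adjusted p = 0.109), control replicate B (adjusted p = 0.0698), control replicate C (adjusted p = 0.0701) or letter C (adjusted p = 0.323), on library totals (adjusted p = 0.0511) and with no filter (adjusted p = 0.0734). With TNF it stood at 92.6% of control (log2 fold change -0.11, SE 0.05) and missed the threshold with an edgeR adjusted p of 0.0614. A call of lower was made there under 8 of 22 alternatives, with adjusted p from 0.00641 to 0.442. These included the fits without proliferation replicate A (adjusted p = 0.0482), without proliferation replicate B (adjusted p = 0.033) and without TNF replicate C (adjusted p = 0.0427). The authors' deposited table for TNF gave Capn1 a log2 fold change of -0.14 with an adjusted p of 0.0197.

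Cast, which encodes calpastatin, the specific inhibitor of calpains 1 and 2, lies on the minus strand of chromosome 13 (74692368 to 74808810). Its libraries A, B and C held 293, 305 and 299 CPM in proliferation and 242, 238 and 246 CPM in control. They held 276, 258 and 264 CPM with TNF and 339, 342 and 325 CPM after siRNA. As for Capn2, no pair of groups overlapped, and the order was control, TNF, proliferation, siRNA. In control Cast stood at 81.0% of the proliferation level (log2 fold change -0.30, SE 0.04, edgeR adjusted p = 2.06e-06). After Fbxl2 siRNA it rose 1.39-fold over control (log2 fold change 0.47, 95% CI 0.38 to 0.56, edgeR adjusted p = 8.52e-09) and 1.12-fold over proliferation (edgeR adjusted p = 0.00225).

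With TNF Cast rose 1.10-fold over control (log2 fold change 0.14, SE 0.04, edgeR adjusted p = 0.0115) and was lower than after siRNA by a log2 fold change of -0.33 (SE 0.04, edgeR adjusted p = 1.16e-06). The call against control ended without control replicate B (adjusted p = 0.066), when letter A (adjusted p = 0.087) or letter C (adjusted p = 0.12) was dropped in every group, on library totals (adjusted p = 0.103) and with no filter (adjusted p = 0.0696). Cast was lower with TNF than in proliferation (log2 fold change -0.17, SE 0.04, edgeR adjusted p = 0.00161), which ended without letter C (adjusted p = 0.0666).

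Several members share exons with another gene, and for the strand setting of the counting nothing was stated in the sources used here. Reads of such stretches cannot be assigned with certainty. Cast shares 834 bases of exon, 7.27% of its merged exons, with Erap1 on the opposite strand, the gene of an aminopeptidase that trims peptides for MHC class I. Erap1 averaged 29.6 CPM in proliferation, 65.0 in control, 179.6 with TNF and 103 after siRNA. Erap1 and Cast were both higher than control with TNF (log2 fold changes 1.47 and 0.14) and after siRNA. In other pairs of groups they went opposite ways. From proliferation to control Erap1 rose and Cast fell, and Cast was lower in TNF than after siRNA where Erap1 was 1.74-fold higher. Capn3 shares 386 bases, 7.68% of its merged exons, with Ganc, a glucosidase gene on the same strand. Ganc rose 1.46-fold from proliferation to control against 3.98-fold for Capn3, and had a log2 fold change of -0.12 with TNF (edgeR adjusted p = 0.0785) and -0.09 after siRNA (adjusted p = 0.165). Capn1 shares 394 bases, 11.8% of its merged exons, with the antisense gene Gm10814, which had 3 to 20 counts in a library. Capn2 shares 1717 bases, 27.1% of its merged exons, with the antisense gene Gm37885, whose symbol is not among those counted. The part of these overlaps in the differences was not tested.

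**Figure D2:**
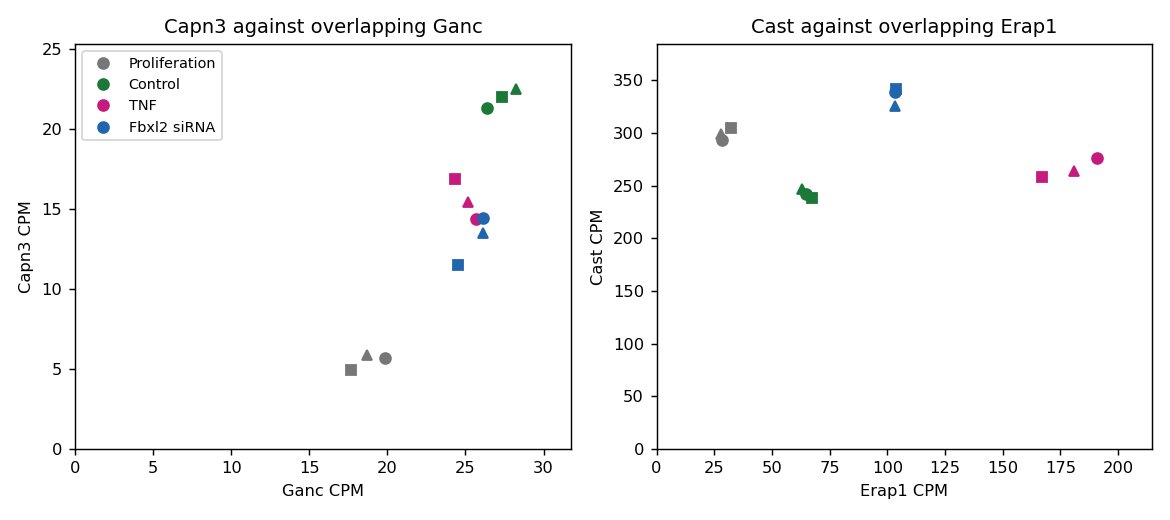
CPM of Capn3 against Ganc (left) and of Cast against Erap1 (right) in the 12 libraries, both axes from 0, with colours for groups and symbols for replicate letters. TNF libraries have the highest Erap1 values, 167 to 191 CPM, while Cast is highest in the siRNA libraries.

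Read together, the 5 genes fell into different patterns. From proliferation to control 2 members rose (Capn3 and Capn6) and 3 fell (Capn1, Capn2 and Cast), so that all 5 were called. Over all genes tested 77.2% were called in that comparison, 38.4% higher and 38.9% lower, so a call by itself sets no member apart, and the groups did not overlap for 5 of 5 members against 79.2% of all genes. The median log2 fold change was -0.14 over the members and -0.00084 over all genes. The fold changes of Capn3 and Capn6 were larger than those of 94.7% and 93.8% of the genes tested.

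For TNF over control 1 of 5 members was called higher (Cast) and 1 lower (Capn3), where 54.6% of all genes were called, 31% higher and 23.6% lower. The groups did not overlap for 4 members (all but Capn6) and 64.7% of all genes. The median was -0.09 over the members and 0.03 over all genes. On library totals with no scaling factor, 46.1% of all calls in this comparison were of higher genes, against 56.8% with TMM. For Fbxl2 siRNA over control 2 members were called higher (Capn2 and Cast) and 1 lower (Capn3), where 63.9% of all genes were called, 34.1% higher and 29.8% lower. The groups did not overlap for 4 members (all but Capn1) and 72.8% of all genes. There the median was 0.07 over the members and 0.03 over all genes.

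For TNF over Fbxl2 siRNA, 3 members were lower with TNF (Capn1, Capn2 and Cast) and 1 higher (Capn3), where 60.5% of all genes were called, 30.6% lower and 29.9% higher. The groups did not overlap for 3 members (Capn1, Capn2 and Cast) and 66.3% of all genes. For TNF over proliferation all 5 were called, 2 higher and 3 lower, where 72.9% of all genes were called, 36.3% higher and 36.5% lower, and the groups did not overlap for 5 members and 73.2% of all genes. For siRNA over proliferation 4 were called, all higher, where 62% of all genes were called, 30.9% higher and 31.1% lower, and the groups did not overlap for 4 members and 64% of all genes. The comparisons share groups and are not independent of each other.

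**Figure D3:**
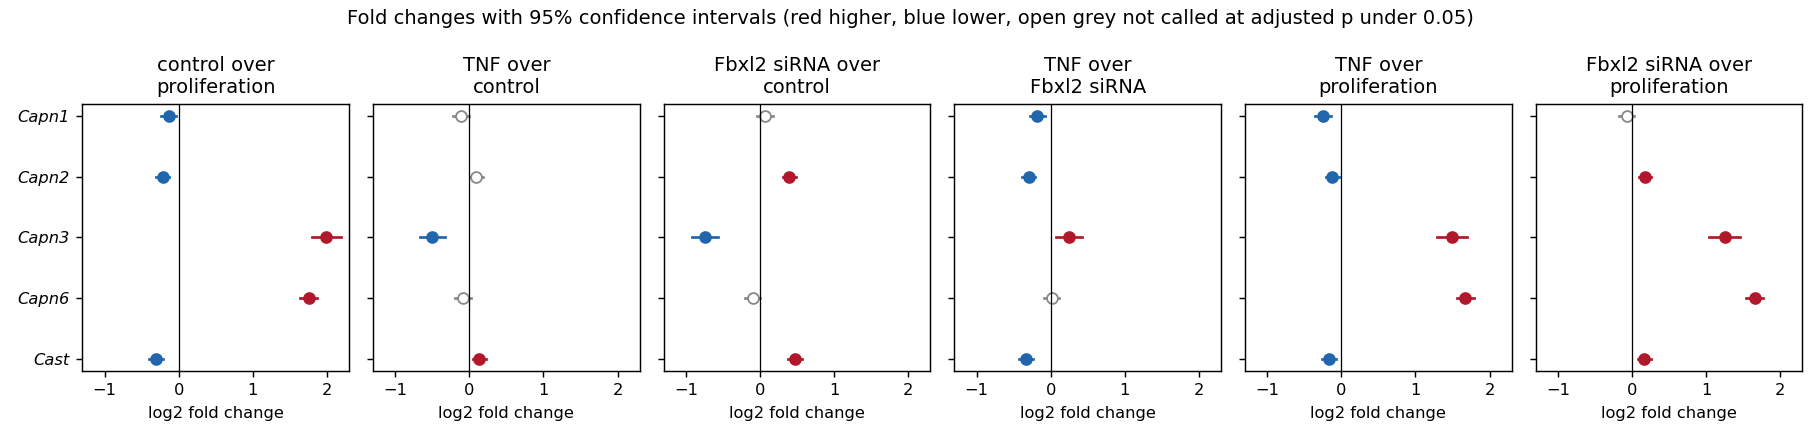
Log2 fold changes (x axis) of the 5 genes in the 6 comparisons, with 95% CIs as lines. Filled points passed the threshold and open points did not: Capn3 is to the left of 0 for both TNF and siRNA over control, Capn6 is open in both, and Cast is to the right in both.

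Levels of different genes were compared per kilobase of merged exon, as CPM per kilobase. On this scale Capn2 was the most abundant of the 5, at 94.2 ± 2.08 in proliferation, 81.1 ± 0.720 in control, 86.7 ± 1.88 with TNF and 106 ± 1.11 after siRNA (SD, n = 3). Cast averaged 26.1 in proliferation, 21.1 in control, 23.2 with TNF and 29.2 after siRNA, and Capn1 24.9, 22.7, 21.0 and 23.7. On merged exons Capn1 was thus above Cast in control and below it in the other groups. This rank depends on the length used. Merged exons span 11470 bases for Cast and 3344 for Capn1, and the longest transcripts 5141 and 3060. Per longest transcript or coding length, Cast lies above Capn1 in every group. Capn6 reached 9.85 ± 0.243 in control from 2.92 ± 0.182 in proliferation. Capn3 reached 4.37 ± 0.118 from 1.09 ± 0.0957. On merged exons the order Capn2 first, Capn1 and Cast next, then Capn6, then Capn3 was the same in all 4 groups. Capn2 made up 77.7% to 82.2% of the summed Capn1 and Capn2 level per kilobase in the 12 libraries. Capns1, the gene of the small subunit that both proteases need, was above Capn2 in each group on merged exons, at 132 ± 3.88 in proliferation and 118 ± 1.36 in control. That order also depends on the length used. Per longest transcript, of 1600 bases for Capns1 and 3225 for Capn2, Capn2 lies above Capns1 with TNF and after siRNA.

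The level of the inhibitor gene relative to its targets was described by the ratio of Cast to the sum of Capn1 and Capn2, each per kilobase. It was 0.215, 0.229 and 0.213 in proliferation libraries A, B and C, 0.201, 0.199 and 0.209 in control, 0.226, 0.212 and 0.208 with TNF and 0.230, 0.225 and 0.219 after siRNA. All control libraries were below all proliferation and siRNA libraries, and overlapped those of TNF. The group means lay between 0.203 ± 0.00525 in control and 0.225 ± 0.00565 after siRNA (SD, n = 3). Cast and Capn2 had the same order over the groups, so the ratio spanned less than Cast itself. The size of the ratio depends on the gene length used, and with coding length it was 0.337 in control and 0.365 after siRNA.

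**Figure D4:**
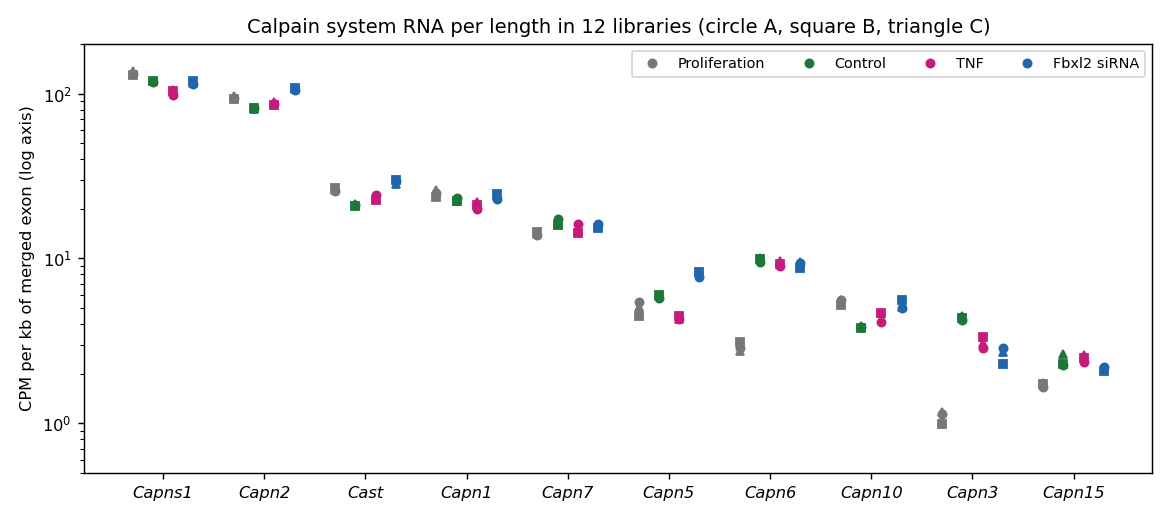
CPM per kilobase of merged exon (log axis) of 10 calpain system genes in the 12 libraries, with colours for groups and symbols for replicate letters. Capn2 averages 81.1 to 106 in a group, Cast and Capn1 between 20 and 30, and Capn3 at 1.09 in proliferation and 4.37 in control on average.

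Of 11 other calpain family genes listed, 5 passed the filter: Capns1, Capn5, Capn7, Capn10 and Capn15. Capn8 had no count in any library, and Capns2, Capn9, Capn12 and Capn13 had at most 2 counts summed over a group. Capn11 had 18 counts over the control libraries, 14 after siRNA, 3 in proliferation and 2 with TNF, too few for the filter. From proliferation to control 3 of the 5 were higher and 2 lower (median log2 fold change 0.22), where 77.2% of all genes were called. With TNF over control 1 was higher and 3 lower (median -0.12), where 54.6% of all genes were called. After siRNA 2 were higher and 0 lower (median -0.02), where 63.9% were called.

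Capns1 averaged 328 ± 9.61 CPM in proliferation, 293 ± 3.37 in control, 254 ± 9.30 with TNF and 289 ± 6.84 after siRNA (SD, n = 3). It fell from proliferation to control (log2 fold change -0.16, SE 0.04, edgeR adjusted p = 0.00229), a call that ended when letter C was dropped in every group (adjusted p = 0.116), and further with TNF (-0.21, SE 0.04, edgeR adjusted p = 0.000393). After siRNA it had a log2 fold change of -0.02 over control (95% CI -0.12 to 0.07, edgeR adjusted p = 0.656), so that, unlike Capn2, the small subunit gene was not called higher there.

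Capn5, which encodes a calpain without the calmodulin-like domain of the conventional ones, moved in opposite directions with the treatments. It averaged 27.3 ± 2.72 CPM in proliferation, 32.4 ± 0.664 in control, 23.8 ± 0.610 with TNF and 44.2 ± 1.68 after siRNA (SD, n = 3). TNF lowered it by 0.44 on the log2 scale (edgeR adjusted p = 5.89e-06), and siRNA libraries were 1.37-fold above control (edgeR adjusted p = 1.95e-06). TNF and siRNA differed directly by a log2 fold change of -0.89 (SE 0.06, edgeR adjusted p = 1.18e-10), and their libraries did not overlap.

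Capn10, a calpain gene known from genetic studies of type 2 diabetes, was lowest in control, as Capn2 and Cast were, but on average highest in proliferation, where those were highest after siRNA. It averaged 23.9 ± 0.915 CPM in proliferation, 16.6 ± 0.267 in control, 19.4 ± 1.27 with TNF and 22.8 ± 1.44 after siRNA (SD, n = 3). It was lower in control than in proliferation (log2 fold change -0.52, SE 0.07, edgeR adjusted p = 3.55e-07), and higher than control with TNF (0.22, SE 0.07, edgeR adjusted p = 0.00759) and siRNA (0.46, SE 0.07, edgeR adjusted p = 4.83e-06). The TNF call ended when letter C was dropped in every group (adjusted p = 0.111).

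Capn7 and Capn15, both of calpain types without the calmodulin-like domain of the conventional ones, rose with differentiation. Capn7 went from 69.1 ± 1.88 to 80.4 ± 3.47 CPM (SD, n = 3, edgeR adjusted p = 0.000664) and Capn15 from 9.84 ± 0.318 to 13.8 ± 1.18 CPM (edgeR adjusted p = 8.69e-06). Capn7 was lower with TNF than in control (log2 fold change -0.12, SE 0.05, edgeR adjusted p = 0.0471), with overlapping libraries. That call ended when any of proliferation C, control A, control C, TNF B, TNF C, siRNA A or siRNA C, or letter B or C, was left out, with adjusted p between 0.0534 and 0.254. Neither gene was called after siRNA, where Capn7 had a log2 fold change of -0.06 (95% CI -0.17 to 0.04, edgeR adjusted p = 0.291) and Capn15 of -0.16 (95% CI -0.32 to -0.01, edgeR adjusted p = 0.0646). Capn15 was called lower there under 6 of 22 alternatives, among them the fit without control replicate A (adjusted p = 0.0418). With TNF over control Capn15 had a log2 fold change of 0.05 (95% CI -0.10 to 0.21, edgeR adjusted p = 0.558).

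**Figure D5:**
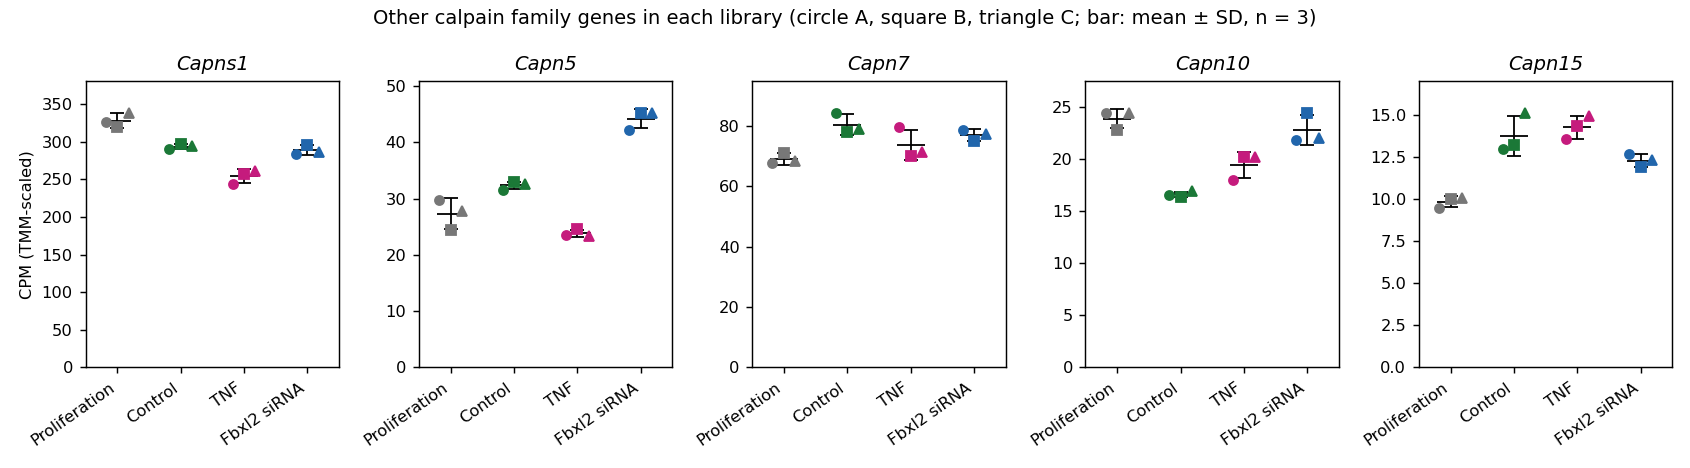
CPM (y axis, from 0) of the 5 other calpain family genes past the filter in the 12 libraries by group (x axis), with bars for mean ± SD (n = 3). Capn5 is highest after Fbxl2 siRNA and lowest with TNF, and Capn10 is lowest in control, at 16.4 to 16.9 CPM.

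Of 18 genes whose proteins are reported calpain substrates, all passed the filter. From proliferation to control 13 were higher and 3 lower (median log2 fold change 0.53), beside 38.4% and 38.9% of all genes. The largest changes were in Neb, the nebulin gene (4.46, SE 0.40), Ryr1, the calcium release channel gene of muscle (3.09, SE 0.22), and Dysf, the gene of the membrane repair protein dysferlin (2.54, SE 0.10). With TNF over control 3 were higher and 12 lower (median -0.26), beside 31% and 23.6% of all genes. The largest changes there were in Nfkbia, the inhibitor of NF-kB (2.66, SE 0.06), Neb (-2.40, SE 0.32) and Ryr1 (-2.07, SE 0.20). After siRNA 3 were higher and 12 lower (median -0.39), beside 34.1% and 29.8% of all genes, led by Ttn, the titin gene (-1.71, SE 0.32), Neb (-1.58, SE 0.30) and Ryr1 (-1.58, SE 0.20), where the call of Neb ended with letter C dropped in every group (adjusted p = 0.0512).

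The partners reported for calpain 3 numbered 9, of which 7 passed the filter, Cmya5 lay below it and Ankrd23 was not matched by symbol; Ttn, Dysf and Ryr1 are also in the substrate list. From proliferation to control 5 were higher and 1 lower (median 2.32). Ankrd2, the gene of an ankyrin repeat protein that binds titin near calpain 3, went from 0.0796 ± 0.0170 to 16.8 ± 1.22 CPM (SD, n = 3), with 7 counts in total in proliferation, so the size of its rise is uncertain. With TNF over control 6 partners were lower and 1 higher (median -1.45), led by Ryr1, Ankrd2 (-2.03, SE 0.12) and Ttn (-1.88, SE 0.32), the last not called with letter C dropped in every group (adjusted p = 0.056). After siRNA 5 were lower and 1 higher (median -0.89), led by Ttn, Ryr1 and Dysf (-1.03, SE 0.08). Over all genes the medians in these comparisons were -0.00084, 0.03 and 0.03, and the shares called were 38.4% higher and 38.9% lower, 31% and 23.6%, and 34.1% and 29.8%.

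For each member the 3 genes with the closest profile were found by Pearson's r of log2 CPM over the 12 libraries, among 12735 other genes. These r describe 4 groups of 3 libraries with shared scaling, so they mostly reflect the order and spacing of the group means. Closest to Capn3 were Plxnc1, a plexin gene (r = 0.995), Csad (r = 0.995) and Mmp14, the gene of a membrane-bound matrix metalloproteinase (r = 0.994). Plxnc1 averaged 0.113 CPM in proliferation, about the level of 3 counts in a library, so its r rests partly on very few counts. Mmp14 averaged 263 CPM in proliferation, 785 in control, 573 with TNF and 485 after siRNA, in the same order as Capn3. Closest to Capn6 were Angpt4, an angiopoietin gene (r = 0.995), Phyhd1 (r = 0.991) and Arhgap24 (r = 0.990).

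Closest to Capn2 were Zbtb7b (r = 0.989), Atp8b2 (r = 0.973) and Cast itself (r = 0.972), and closest to Cast were Qsox2 (r = 0.986), Rabggtb (r = 0.981) and Anxa3, an annexin gene (r = 0.975). Closest to Capn1 were Acadvl, a gene of fatty acid oxidation (r = 0.954), Ptk2b, a kinase gene (r = 0.936), and Hr (r = 0.931). With Spearman's rho in place of Pearson's r, 0 of the 3 genes remained for each member, so the ranking depends on the measure.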

How the data were processed

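RNA of 12 C2C12 libraries was sequenced with an Illumina mRNA kit, per the labels, from RNA with integrity numbers of 9.7 to 10.0. The authors deposited whole-number counts for 21232 gene symbols. The submitters' processing notes name CASAVA, DESeq2 and mm10. The aligner, counter, strand setting and annotation were not stated in the sources used here. The authors' 3 deposited tables of comparisons held a normalized signal (counts divided by a size factor per library), log2 fold changes and adjusted p-values. The table named for proliferation matched TNF over proliferation (median absolute difference 0.0014), and these tables were used only where named.

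Counts were analysed in R 4.3.3 with edgeR 4.0.16 (filterByExpr, TMM, robust quasi-likelihood fit of 4 group means to all 12 libraries, 8 residual degrees of freedom) and limma 3.58.1, with p-values adjusted over the 12736 genes tested. The standard error (SE) is the absolute log2 fold change over the square root of F. The procedure was tested on simulated data. A floor of 3 counts was 0.0911 to 0.114 CPM, which covers counting error only. Exon lengths came from GENCODE M21 (GRCm38), for 20544 symbols, and promoters from RefSeq (GRCm38.p6).

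Replicate pairs differed by more than sampling noise (chi-square per degree of freedom 1.60 to 21.2). The 5 members and all lists were chosen with earlier results of these data known. Named were the members, the family genes past the filter, the 3 largest called changes of the substrate and partner lists, and the 3 genes most like each member. Alternatives were RLE scaling, library totals, no filter, DESeq2 1.42.0, limma-voom, a replicate block, only the groups compared, each library and each letter left out, other gene lengths, and other measures of likeness.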

Additional observations from a re-analysis of the deposited data

How the results depend on the processing

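The log2 fold changes of the 5 members in 6 comparisons were recomputed under 22 alternatives. Of 660 values, 615 kept their direction and side of the threshold, 20 lost and 21 gained a call, and 4 changed sign. Every call of Capn3 and Capn6 over proliferation and of Capn3, Capn2 and Cast for siRNA over control was kept in all 22. Ranges below are first over the 12 fits without 1 library and then over the 3 without 1 letter.

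For control over proliferation, Capn1 lost its call on library totals (-0.11) and with no filter (-0.11), and ranged from -0.17 to -0.098 and from -0.16 to -0.083. For TNF over control, Capn1 gained a call with RLE scaling (-0.13), library totals (-0.17), no filter (-0.14), DESeq2 (-0.13) and only the groups compared (-0.14), with ranges of -0.14 to -0.078 and -0.16 to -0.055. Capn2 gained one with DESeq2 (0.081), limma-voom (0.095) and the replicate block (0.095), with ranges of 0.081 to 0.11 and 0.068 to 0.12. Capn6 gained one on library totals (-0.14) and with only the groups compared (-0.12), and Cast lost its call on library totals (0.081) and with no filter (0.11), with ranges of 0.11 to 0.16 and 0.11 to 0.15. For siRNA over control, Capn6 gained a call with RLE scaling (-0.13), library totals (-0.13), no filter (-0.13), DESeq2 (-0.13) and only the groups compared (-0.12).

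For TNF over siRNA, Capn6, not called in any fit, changed sign on library totals (-0.015) and when single libraries or letters were left out (ranges -0.023 to 0.036 and -0.018 to 0.048, with -0.017 without TNF replicate C, -0.023 without siRNA replicate B and -0.018 without letter B). Capn3 there ranged from 0.15 to 0.32 and from 0.090 to 0.37, and was 0.27 without letter C. For TNF over proliferation, Capn2 lost its call with only the groups compared (-0.12) and ranged from -0.14 to -0.10 (with -0.12 without any one letter), and Cast from -0.20 to -0.15 and from -0.21 to -0.13. Capn15, not called for TNF over control, changed sign on library totals (-0.00067). The causes were not tested.

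The replicate block changed no other call of a member, and moved the calls over all genes from 6960 to 7070 for TNF over control and from 8142 to 8239 for siRNA over control. The correlation of same-letter deviations from the group means exceeded 0.1 in 3 of 18 pairs (-0.096 to 0.18), beside -0.16 to 0.13 for pairs of different letters. Of 12 libraries, 7 correlated best with their own letter. With 3 libraries in a group, these values cannot decide whether letters paired the samples. The ratio of Cast to Capn1 plus Capn2 with the longest transcript was 0.274 in proliferation, 0.255 in control, 0.267 with TNF and 0.277 after siRNA, and with coding length 0.361, 0.337, 0.353 and 0.365. The count of all genes called stayed within 1.5 times of each main count under every alternative. Capn3, with 133 to 178 counts in a proliferation library, is the member whose precision is most limited by depth.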
